A study of Mus musculus with 6 samples.

Results

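Mitosis and kinetochore genes, 47 in all, were followed in the livers of p14 knockout and wild-type mice. They were chosen by function: cyclins, mitotic kinases, kinetochore and checkpoint proteins, spindle motors and factors of cytokinesis. Of the 47, 46 had a probe set that the array annotation pairs with a single gene symbol. Ccnb1 had none listed. The whole table held 18193 such genes, and for a gene with several probe sets the one with the highest 6-array mean was used. The genes below are grouped by the role each protein is known for.

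p14 is encoded by Lamtor2. It is a late endosomal adaptor and a subunit of the Ragulator complex, which takes part in mTORC1 and MAP kinase signalling. The KO group was 3 male C57BL/6 mice, 6 weeks of age, with a conditional deletion of p14 in the liver, and the WT group was 3 male C57BL/6 mice of the same age with no deletion. The labels used here do not give the driver of the deletion, the cells it reached, or whether the control animals carried a floxed allele. Each array was hybridised with total RNA from the liver of 1 mouse, called KO 1 to KO 3 and WT 1 to WT 3 after the labels. The deposited values are log2 expression levels made by the authors with GCRMA, a method that subtracts background and normalises between arrays. A value of 4 on this scale is used below as the lower limit of a usable level.

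Lamtor2 measured 10.08, 10.19 and 10.11 on the KO arrays and 11.32, 11.29 and 11.35 on the WT arrays, so all 3 KO arrays lay below all WT arrays (difference -1.19, adjusted p = 0.0104 in limma). The call was lost without KO 2, WT 1, WT 2 or WT 3, where the limma adjusted p lay between 0.0505 and 0.114. Hepatocyte markers were alike on all 6 arrays, with list means of 15.33 to 15.40. Between 43.6% and 44.0% of probe sets were at 4 or above on each array. Skeletal muscle markers had a list mean of 11.02 on WT 2 and at most 2.52 elsewhere. KO 3 lay between the other KO arrays and the WT arrays for many of the members below. Of all genes with a mean of at least 4, it was the highest KO array in 34.8%. The 18S rRNA control signal was 0.80 higher in KO. The 5 prime probe set of the pyruvate carboxylase control was 1.15 higher in KO and its 3 prime probe set 0.20 higher. For the GAPDH control the KO minus WT differences were -0.03 at the 5 prime and -0.09 at the 3 prime probe set.

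Cells enter mitosis when cyclins A and B activate Cdk1. Aurora, Polo-like and NIMA-related kinases then build the spindle, kinetochores attach chromosomes to it, and the spindle checkpoint holds back the anaphase-promoting complex (APC/C) until every chromosome is attached. Most hepatocytes of an adult liver rest outside the cell cycle, so that transcripts of this programme are low in a healthy adult liver and higher while the liver grows or regenerates. The genes are transcribed late in the cell cycle. In resting cells many of them are held silent by the DREAM complex, which binds a promoter element called the cell cycle genes homology region, or CHR. In dividing cells B-Myb and Foxm1 are recruited through the same element, and the factor NF-Y binds CCAAT boxes in front of it.

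Promoter sequences of the members are shown first because the members share sequence features that played no part in choosing them. RefSeq promoter windows (build GRCm38.p6), which run from 250 bases before to 50 after an annotated start, were given for 38 members and came to 40 windows. A CHR was searched as TTTGAA and a CCAAT box as CCAAT, each on both strands, so that TTCAAA and ATTGG also count. The lines below give 160 bases each, from 130 before the start through the first 30 transcribed, 5′ to 3′ on the strand of the gene, with CHR and CCAAT matches in capitals. The first 7 are genes with a CHR near the start. In Ccnb2, Cdk1, Cenpa, Top2a and Ube2c that CHR lies downstream of every CCAAT box, while in Cdc20 and Cdca8 a further CCAAT box follows it. Mki67 has both its CHR matches further upstream, and Nuf2 has no match of either kind.
Ccnb2: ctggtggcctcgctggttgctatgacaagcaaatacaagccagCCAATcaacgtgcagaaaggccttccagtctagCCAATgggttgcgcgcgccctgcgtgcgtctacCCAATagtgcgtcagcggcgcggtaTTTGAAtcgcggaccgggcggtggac
Cdc20: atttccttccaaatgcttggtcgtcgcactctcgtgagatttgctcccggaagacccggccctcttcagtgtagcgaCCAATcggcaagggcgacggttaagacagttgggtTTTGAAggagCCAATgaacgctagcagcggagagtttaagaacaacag
Cdca8: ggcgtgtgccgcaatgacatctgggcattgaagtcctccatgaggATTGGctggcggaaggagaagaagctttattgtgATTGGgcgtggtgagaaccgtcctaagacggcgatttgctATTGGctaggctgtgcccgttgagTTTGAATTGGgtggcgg
Cdk1: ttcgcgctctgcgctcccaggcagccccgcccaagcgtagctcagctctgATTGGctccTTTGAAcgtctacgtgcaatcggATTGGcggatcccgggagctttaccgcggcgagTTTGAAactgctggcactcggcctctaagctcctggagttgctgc
Cenpa: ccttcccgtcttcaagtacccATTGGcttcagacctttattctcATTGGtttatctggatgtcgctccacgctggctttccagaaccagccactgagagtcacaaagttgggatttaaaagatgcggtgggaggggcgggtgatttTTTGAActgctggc
Top2a: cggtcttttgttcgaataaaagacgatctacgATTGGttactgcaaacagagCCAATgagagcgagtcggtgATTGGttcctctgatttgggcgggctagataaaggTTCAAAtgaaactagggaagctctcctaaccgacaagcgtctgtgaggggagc
Ube2c: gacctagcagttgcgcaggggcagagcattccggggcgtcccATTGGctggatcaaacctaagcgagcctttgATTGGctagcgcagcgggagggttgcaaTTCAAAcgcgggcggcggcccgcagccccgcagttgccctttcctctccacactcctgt
Mki67: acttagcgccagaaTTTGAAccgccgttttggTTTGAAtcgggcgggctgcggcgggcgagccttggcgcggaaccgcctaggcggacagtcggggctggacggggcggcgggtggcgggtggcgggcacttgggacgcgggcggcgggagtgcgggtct
Nuf2: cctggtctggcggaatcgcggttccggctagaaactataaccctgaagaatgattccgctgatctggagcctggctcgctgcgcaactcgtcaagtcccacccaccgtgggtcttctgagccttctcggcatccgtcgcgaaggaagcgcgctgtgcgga

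These stretches lie at chr9:70421525-70421684 (minus strand), chr4:118437314-118437473 (minus strand), chr4:124936888-124937047 (minus strand), chr10:69352883-69353042 (minus strand), chr5:30666756-30666915 (plus strand), chr11:99024160-99024319 (minus strand), chr2:164769799-164769958 (plus strand), chr7:135716350-135716509 (minus strand) and chr1:169531435-169531594 (minus strand). In Cdca8 the CHR and a CCAAT box share a base, the 1 member window where they do. In Cdk1 each of 2 CHR matches follows a CCAAT box on the opposite strand.

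A CHR within 50 bases of the start was found in 27 of 40 member windows, or 67.5%, against 4.94% of all 32851 windows. Of these matches 20 were on the strand of the gene and 8 on the other strand. CCAAT boxes were present in 77.5% of member windows against 37.4% of all windows, and 57.5% held 2 or more against 11.7%. The sequence TATAAA, the TATA box, was present in 2.5% of member windows and in 13.6% of all windows. A match describes the letters in the window and does not show that a factor was bound there.

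**Figure D1:**
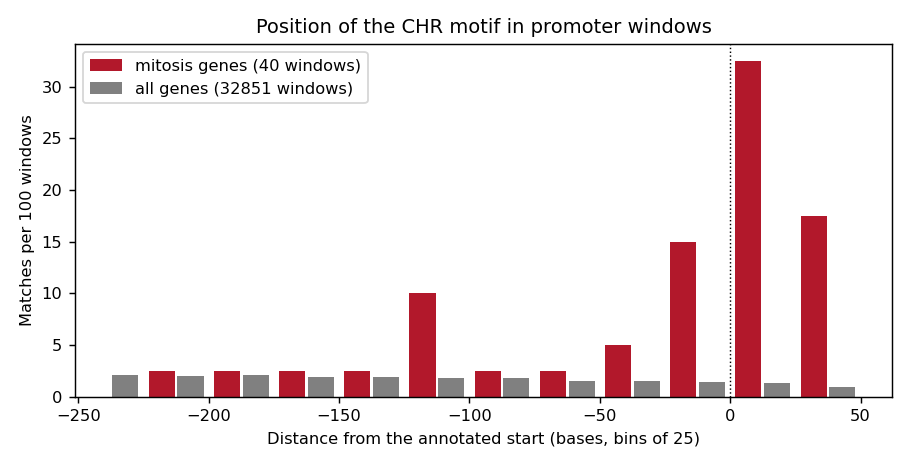
Matches to the CHR motif per 100 promoter windows (vertical axis) by distance from the annotated start in bins of 25 bases (horizontal axis), for the 40 windows of mitosis genes in red and all 32851 windows in grey. Member windows reach 32.5 matches per 100 in the bin from 0 to 24 bases after the start, where all windows have 1.31.

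The CHR near the start was unevenly spread over related gene lists. It was found in 38.3% of 60 windows of other mitosis genes and in 5.41% of 37 windows of ubiquitous mitotic machinery, such as tubulins and cohesin, which all cells use. For DNA replication genes the share was 5.88% of 34 windows. Between the groups of mice, the 25 measured members with a CHR near the start had a median difference of -1.46 and the 12 without one a median of -1.56 (KO minus WT, log2).

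The members were lower in KO as a group. Every KO array lay below every WT array for 35 of the 46, where 8.08% of all 18193 genes did. For 17 members the highest KO array lay at least 1 log2 unit below the lowest WT array, against 0.181% of all genes, and for 5 of the 35 (Aurkb, Cenpe, Bub1, Kif11 and Foxm1) the gap was under 0.1. Taking values under 4 as 4, the groups stayed apart for 27 members and for 7.7% of all genes. By means, 27 members were at least 2-fold lower in KO (1.31% of all genes), and 19 were with values under 4 taken as 4 (1.01%). The median difference over the 46 was -1.31, or -0.80 with values under 4 taken as 4, while the median over all genes was 0.00 either way. Only Bub1b was higher, by 0.05. Macrophage markers, described further on, were lower on the same arrays with a median of -0.87. In a bulk liver sample, fewer dividing cells and less RNA per dividing cell cannot be told apart.

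**Figure D2:**
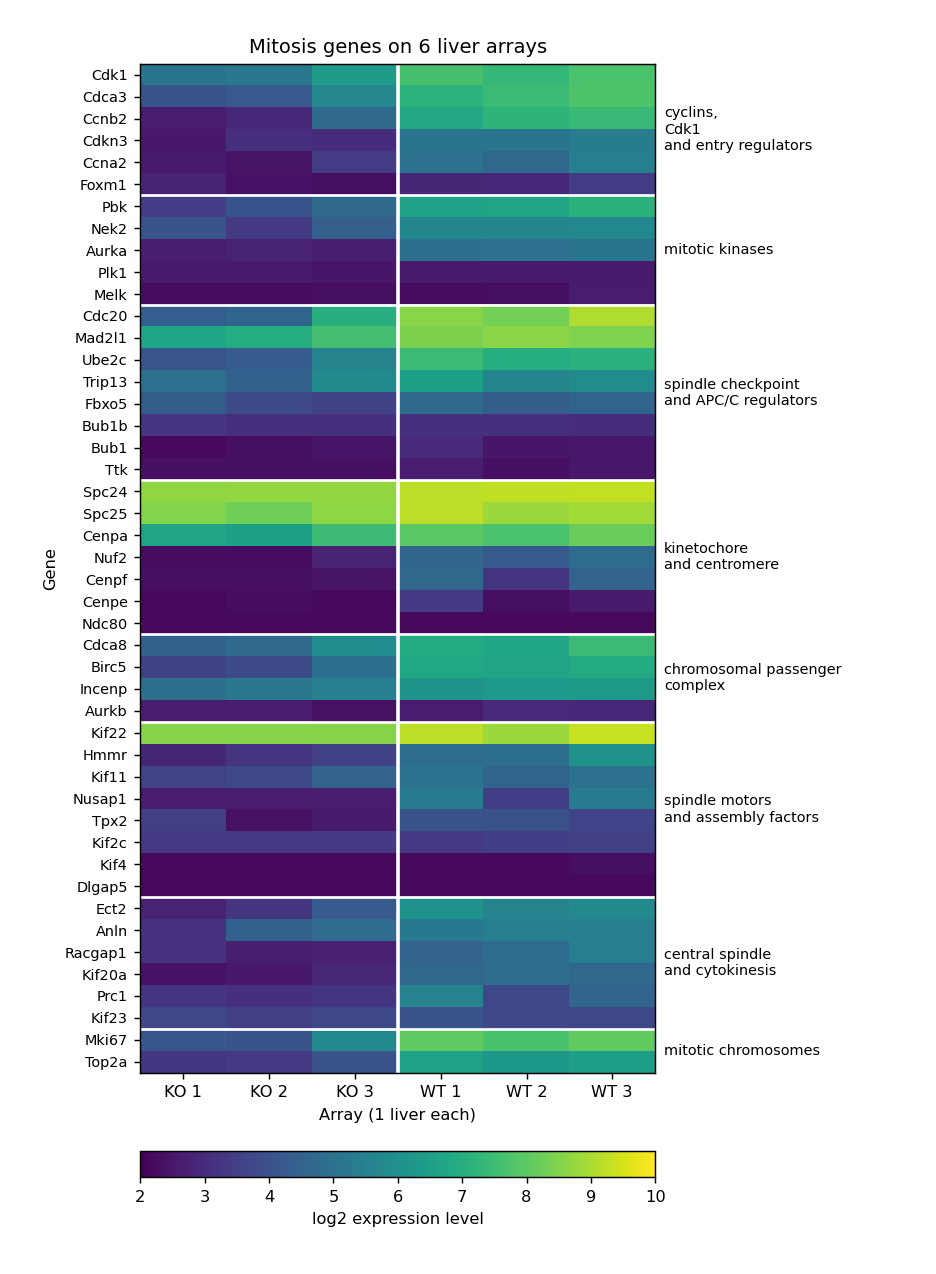
Log2 expression level (colour, from 2 to 10) of the 46 measured mitosis genes (rows, grouped by role) on 3 KO and 3 WT arrays (columns, divided by the white line). Most rows are darker on the KO side, KO 3 is lighter than KO 1 and KO 2 in many rows, and rows such as Ndc80 and Dlgap5 are dark on all 6 arrays.

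In limma, with p adjusted over all genes tested, 6 of the 47 fell: Aurka, Kif20a, Cdkn3, Top2a, Nuf2 and Spc24. Of 10009 genes tested, 15 were called lower, or 0.15%, so these 6 are among them. Aurka, Kif20a, Cdkn3 and Nuf2 had no KO array at 4 and passed the filter through the WT arrays alone, and with a filter on the mean over all 6 arrays, which takes no account of group, Cdkn3 and Top2a were the only members called. The test took genes at 4 or above on at least 3 arrays. That left 29 members, of which 7 had no KO array at 4 and so could pass only through the WT arrays. Of the other members, 5 reached 4 on 1 or 2 arrays and 12 on none, so that 17 members could not be tested. Those 12 (Aurkb, Foxm1, Cenpe, Ndc80, Plk1, Melk, Bub1, Ttk, Bub1b, Kif2c, Kif4 and Dlgap5) lay between 2.18 and 3.50 on every array, a range in which background sets the value.

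The calls depended on which arrays were included. With any 1 array left out Aurka was called (limma adjusted p from 0.00487 to 0.0281), but its KO values are nearly tied at background level, it was not tested under the filter on the mean, and so this says little about its stability. Without KO 1, Kif20a and Cdkn3 were also called. Without KO 2, WT 1, WT 2 or WT 3, Aurka was the only member called. Without KO 3 the count was 21 members, where 1.14% of all genes were called lower.

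To put the dim genes aside without reference to group, members with a mean over all 6 arrays of at least 4 were counted too. The groups did not overlap for 22 of these 24 (13.9% of all such genes), 18 were at least 2-fold lower in KO (1.55%), and the median difference was -2.00 against -0.04 for all 10014 such genes. Fbxo5 and Trip13 were the 2 whose groups overlapped. The WT arrays can still carry this mean, as for Cdkn3 and Hmmr, which had no KO array at 4. Of all members, 13 were at 4 or above on all 6 arrays. Among these 13 the groups did not overlap for 12 (13.7% of all such genes), and 9 were at least 2-fold lower in KO (1.14%). Their median difference was -1.39 against -0.04 for all such genes, and Spc24 alone was called in limma.

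**Figure D3:**
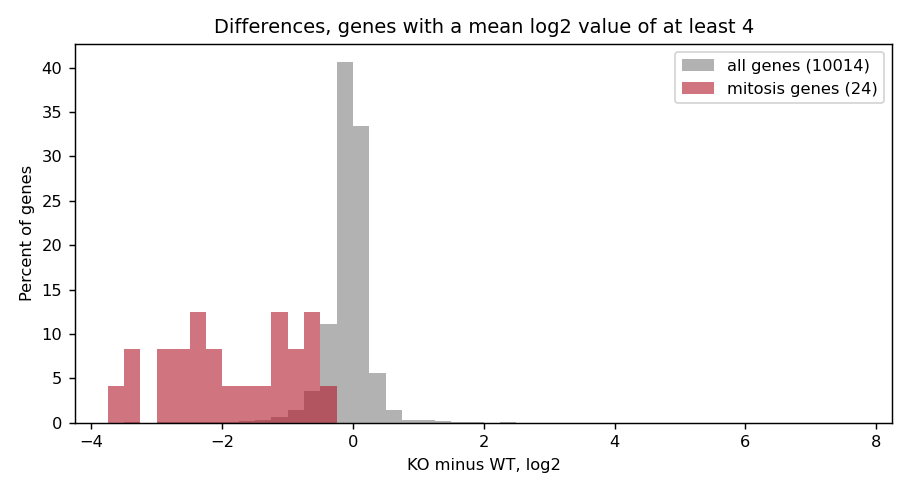
Percent of genes (vertical axis) by difference between group means, KO minus WT on the log2 scale (horizontal axis, bins of 0.25), for the 24 mitosis genes and the 10014 genes of any kind with a mean of at least 4. All genes centre on a median of -0.04 and the mitosis genes on -2.00. Cdkn3 and Hmmr are among the 24 although no KO array reached 4 for them.

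Cyclins and regulators of mitotic entry had the lowest median of the roles with more than 2 genes, at -2.28 over 6 genes (-1.60 with values under 4 taken as 4). The groups did not overlap for any of the 6, against 8.08% of all genes. Cdkn3, a phosphatase that acts on cyclin-dependent kinases (Entrez gene 72391), fell. It measured 2.53, 3.10 and 3.02 on the KO arrays and 5.12, 5.11 and 5.36 on the WT arrays (difference -2.31, SE 0.17, adjusted p = 0.0275 in limma). No KO array reached 4, so the fold is given as at least 2.29-fold lower.

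Ccnb2, a B-type cyclin that activates Cdk1, measured 2.62, 2.88 and 4.77 in KO and 6.82, 7.19 and 7.39 in WT. Ccna2, cyclin A of dividing cells, measured 2.57, 2.44 and 3.40 in KO and 5.01, 4.66 and 5.49 in WT. Cdca3, a trigger of mitotic entry, measured 4.08, 4.23 and 5.69 in KO and 7.19, 7.44 and 7.79 in WT. All 3 had KO 3 as the highest KO array, below the lowest WT array. Differences were -3.71 for Ccnb2, -2.25 for Ccna2 and -2.80 for Cdca3, and the limma adjusted p lay between 0.12 and 0.133, so none of the 3 was called. Ccna2 was at least 2.08-fold lower, with no KO array at 4. Cdk1, the kinase that the mitotic cyclins activate, lay at 5.57 ± 0.72 in the knockouts and 7.58 ± 0.22 in wild-type livers (SD, n = 3 each). Foxm1, a transcription factor of mitotic genes, was below 4 on every array.

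Mitotic kinases included the member with the smallest p. Aurka, the Aurora kinase of centrosomes and spindle poles (Entrez gene 20878), fell. It measured 2.66, 2.76 and 2.66 on the KO arrays and 4.96, 4.97 and 5.11 on the WT arrays (difference -2.32, SE 0.07, adjusted p = 0.00114 in limma). The KO arrays were near the bottom of the scale and almost tied, which narrows the spread that the test sees, and the fold is at least 2.02. Pbk, a kinase active in mitosis, measured 3.44, 4.01 and 4.77 in KO and 6.60, 6.68 and 7.15 in WT. Nek2, a kinase that separates centrosomes, measured 4.07, 3.37 and 4.43 in KO and 5.66, 5.63 and 5.74 in WT. Both had groups that did not overlap and missed the threshold (limma adjusted p = 0.0935 for Pbk and 0.129 for Nek2). Plk1 and Melk lay below 4 throughout.

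Both genes of mitotic chromosomes were lower by over 2 log2 units. Top2a, the topoisomerase that disentangles replicated chromosomes (Entrez gene 21973), fell. It measured 3.30, 3.33 and 4.04 in KO and 6.56, 6.28 and 6.46 in WT (difference -2.88, SE 0.22, adjusted p = 0.0275 in limma), and its gap of 2.24 between the highest KO and the lowest WT array was the widest of all members. Mki67, which encodes the proliferation marker Ki-67 that coats mitotic chromosomes, measured 4.17, 4.07 and 5.72 in KO and 8.03, 7.70 and 8.03 in WT. The difference of -3.27 was larger than for Top2a, but KO 3 stood apart from the other KO arrays and Mki67 missed the threshold (limma adjusted p = 0.116).

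Kinetochore genes had a median of -0.54 over 7 (-0.49 with values under 4 taken as 4). The groups did not overlap for 6, against 8.08% of all genes. Cenpe, 1 of the 6, lay below 4 on every array with a gap of 0.01. The Ndc80 complex, made of Ndc80, Nuf2, Spc24 and Spc25, is the part of the kinetochore that grips microtubules. Nuf2 (Entrez gene 66977) fell, with 2.26, 2.26 and 2.78 in KO and 4.61, 4.26 and 4.81 in WT (difference -2.13, SE 0.20, adjusted p = 0.0411 in limma), and was at least 1.47-fold lower. With values under 4 taken as 4 its difference was -0.56 and it was not called (limma adjusted p = 0.241, over its alternatives 0.0261 to 0.249). Spc24 (Entrez gene 67629) fell, with 8.68, 8.70 and 8.69 in KO and 9.22, 9.22 and 9.25 in WT (difference -0.54, SE 0.05, adjusted p = 0.0456 in limma). Spc24 was thus called for a small difference with little spread, and the call was lost with quantile normalisation, median centring, an intensity trend or the filter on the mean (limma adjusted p from 0.0523 to 0.0908). Spc25 measured 8.52, 8.25 and 8.65 in KO and 9.19, 8.80 and 8.89 in WT (difference -0.49, not called, limma adjusted p = 0.283). The remaining subunit, Ndc80, was at 2.21 on all 6 arrays, so the array gives no measure of it.

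Among centromere proteins none was called. Cenpa, the histone variant that marks centromeres, measured 6.67, 6.55 and 7.50 in KO and 7.95, 7.73 and 8.18 in WT (limma adjusted p = 0.25). Cenpf, a kinetochore protein of late cell cycle stages, measured 2.34, 2.34 and 2.42 in KO and 4.66, 3.19 and 4.53 in WT, too few arrays at 4 for the test. Neither had overlapping groups. Cenpe, a kinesin of kinetochores, lay below 4 on every array.

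The chromosomal passenger complex, which corrects faulty attachments and then moves to the spindle midzone, is made of Aurkb, Incenp, Birc5 and Cdca8. Birc5, or survivin, measured 3.56, 3.85 and 4.91 in KO and 6.80, 6.68 and 6.89 in WT. Incenp, the scaffold, measured 4.95, 5.20 and 5.48 in KO and 6.15, 6.33 and 6.37 in WT. Cdca8, or borealin, measured 4.45, 4.74 and 5.90 in KO and 6.88, 6.75 and 7.45 in WT. In all 3 the groups did not overlap and KO 3 was the highest KO array. Differences were -2.68 for Birc5, -1.07 for Incenp and -2.00 for Cdca8, with limma adjusted p of 0.0944, 0.116 and 0.196, none of them called. Aurkb, the kinase of the complex, lay below 4 on every array, with a gap under 0.1 between the groups.

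Spindle checkpoint and APC/C regulators had a median of -0.78 over 8 genes (-0.67 with values under 4 taken as 4), and none was called. Cdc20, the activator of the APC/C that the checkpoint restrains, measured 4.38, 4.60 and 7.02 in KO and 8.58, 8.34 and 9.04 in WT. Ube2c, the ubiquitin-conjugating enzyme of the APC/C, measured 4.13, 4.32 and 5.58 in KO and 7.44, 6.95 and 7.11 in WT. Mad2l1, the checkpoint protein that binds Cdc20, measured 6.70, 6.95 and 7.64 in KO and 8.42, 8.62 and 8.44 in WT. In each of these the WT arrays were all higher than the KO arrays, and KO 3 was nearest to them. Differences were -3.32 for Cdc20, -2.49 for Ube2c and -1.39 for Mad2l1 (limma adjusted p = 0.204, 0.13 and 0.157). Without KO 3, all 3 were called and the limma adjusted p was 0.0158 for Cdc20, 0.0158 for Ube2c and 0.0243 for Mad2l1. Fbxo5, an APC/C inhibitor, and Trip13, which dismantles checkpoint complexes, had overlapping groups, with differences of -0.65 and -0.91. The checkpoint kinases Bub1 and Ttk and the checkpoint protein Bub1b lay below 4 on every array.

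Spindle motors and assembly factors had a median of -0.73 over 8 genes (-0.29 with values under 4 taken as 4), and none was called. The groups did not overlap for 5 of the 8, against 8.08% of all genes. Hmmr, a spindle protein that binds microtubules, measured 2.81, 3.20 and 3.58 in KO and 4.83, 4.89 and 6.11 in WT, at least 2.42-fold lower (limma adjusted p = 0.178). Kif22, a chromosome-arm kinesin, measured 8.56 on each KO array and 9.20, 8.80 and 9.33 in WT (limma adjusted p = 0.242). Its 3 KO values were identical, which narrows the spread that the test sees. A second Kif22 probe set measured 2.70, 3.04 and 3.00 in KO and 3.35, 3.56 and 5.23 in WT, and another lay below 4 on every array. Nusap1, a microtubule bundling protein, measured 2.60, 2.60 and 2.63 in KO and 5.31, 3.49 and 5.29 in WT, with too few arrays at 4 for the test. The WT arrays were all above the KO arrays in these 3, with WT 2 the lowest WT array in Kif22 and Nusap1. Kif11, the motor that pushes spindle poles apart, differed by -0.91. Tpx2, which activates Aurka, reached 4 on WT 1 alone, and its difference was -0.02 with values under 4 taken as 4. Kif2c, Kif4 and Dlgap5 lay below 4 on every array by the probe set used. A second Kif2c probe set measured 2.37, 2.31 and 2.84 in KO and 3.41, 2.87 and 4.22 in WT. Its difference was -0.07 with values under 4 taken as 4.

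Genes of the central spindle and of cytokinesis had a median of -1.77 over 6 genes (-0.83 with values under 4 taken as 4). The groups did not overlap for 5, against 8.08% of all genes. Kif20a, a kinesin of the central spindle (Entrez gene 19348), fell, with 2.40, 2.55 and 2.85 in KO and 4.69, 4.85 and 4.67 in WT (difference -2.14, SE 0.13, adjusted p = 0.0163 in limma), and was at least 1.67-fold lower. Racgap1, of the centralspindlin complex, measured 3.14, 2.67 and 2.71 in KO and 4.53, 4.79 and 5.41 in WT, at least 1.88-fold lower. Ect2, the exchange factor that starts the cleavage furrow, measured 2.75, 3.19 and 4.28 in KO and 6.11, 5.59 and 5.79 in WT. Racgap1 and Ect2 bind each other at the midzone, and both had groups that did not overlap without passing the threshold (limma adjusted p = 0.0872 and 0.139). Prc1, which crosslinks midzone microtubules, measured 3.21, 3.09 and 3.22 in KO and 5.56, 3.73 and 4.62 in WT, with too few arrays at 4 for the test. Anln, an actin-binding protein of the furrow, differed by -1.23. Kif23, the kinesin of centralspindlin, reached 4 on WT 1 alone, and its groups were not apart.

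**Figure D4:**
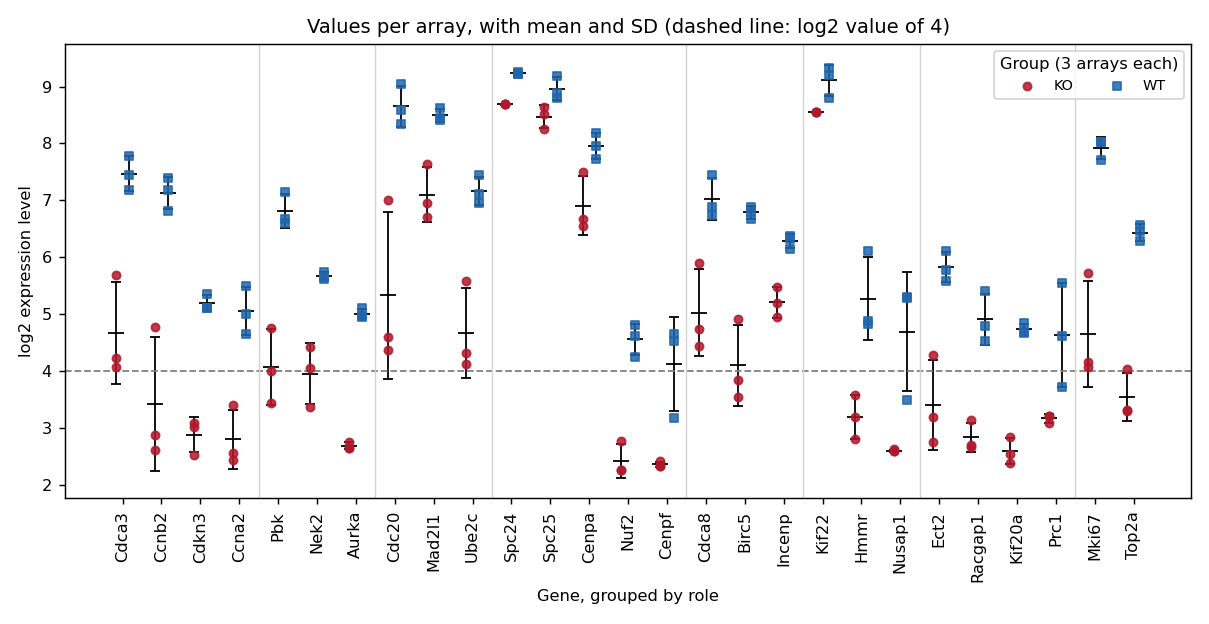
Log2 expression level (vertical axis) of 27 mitosis genes grouped by role (horizontal axis), with points for the 3 KO (red circles) and 3 WT (blue squares) arrays and bars for the mean and SD. The genes are those called or with the smallest p in their role, a choice that favours separated groups, and Fbxo5 and Trip13, whose groups overlap, are not drawn. In each gene drawn the WT points lie above the KO points, and the topmost KO point of Ccnb2, Cdc20 and Mki67 is KO 3.

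The 46 genes had 55 further probe sets, 45 of them below 4 on all arrays. The 5 past the filter, in 4 genes, were all lower in KO, 4 of them without overlap. Of all genes past the filter, 14% had no overlap, KO lower, by the probe set used. A second probe set for Cdc20 measured 3.35, 4.88 and 6.46 in KO and 8.25, 8.48 and 8.65 in WT, the same order of groups and with KO 3 again the highest KO array. For Hmmr the second probe set differed by -2.08, as did the first. Neither had a KO array at 4, so both passed the filter through the WT arrays alone. Differences were smaller for Cdca8, at -0.84 and -0.60 against -2.00 for the probe set used. For Nek2 the second probe set, at 4 or above on all 6 arrays, differed by -0.14 with overlapping groups, against -1.72 for the one used.

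KO 3 had the highest mean over the members of the 3 KO livers. Among the 24 members with a mean of at least 4, KO 3 was the highest KO array in 20, where 34.8% of all such genes had it highest. Means over the 46 members were 3.70, 3.72 and 4.21 on KO 1, KO 2 and KO 3, and 5.34, 5.10 and 5.42 on the WT arrays, so KO 3 was still below every WT array. Lamtor2 on KO 3, at 10.11, was between KO 1 and KO 2. Leaving out KO 3 moved the count of non-overlapping members from 35 to 37 (13.9% of all genes), and leaving out WT 2 moved it to 38 (13.5%).

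Other lists of the cell cycle were less shifted by their medians. Among 61 other mitosis genes, which include condensins, centromere proteins and further spindle factors, 0 were called and the median was -0.20. In that list the groups did not overlap, KO lower, for 21 of 61 (34.4%, against 8.08% of all genes), and 35 lay below 4 on all arrays. Ckap2, a microtubule stabiliser, had the smallest p, with 3.73, 4.32 and 4.34 in KO and 5.79, 5.81 and 6.37 in WT (limma adjusted p = 0.0918). Ubiquitous mitotic machinery, made in resting cells too, had a median of -0.03 over 37 genes, with 0 called. The groups did not overlap, KO lower, for 4 of the 37 (10.8%), close to the 8.08% of all genes. Its list means ran from 8.98 to 8.99 in KO and from 8.98 to 9.06 in WT.

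DNA replication genes, which act in S phase just before mitosis, had a median of -0.28 over 35 genes. None was called, 32 were lower in KO by means, and the groups did not overlap, KO lower, for 11 (31.4%, against 8.08% of all genes). By means, 8 of the 35 were at least 2-fold lower in KO, against 1.31% of all genes. Lig1, the ligase that joins replicated fragments, measured 4.77, 4.59 and 5.22 in KO and 6.93, 6.50 and 6.93 in WT (difference -1.92, limma adjusted p = 0.0564). Rrm2, the regulated subunit of ribonucleotide reductase, differed by -0.92 (limma adjusted p = 0.138). Mcm2, Mcm3, Mcm5, Mcm6 and Mcm7 had differences from -2.06 to -1.05 with no overlap, and Mcm4 differed by -0.65 with overlapping groups. In the other direction, Mcm10 measured 11.14, 10.99 and 10.40 in KO and 9.70, 9.44 and 10.03 in WT (difference 1.12, limma adjusted p = 0.202). It was the 1 gene of this list with every KO array above every WT array. The differences between these lists and the members were not tested. For lists with 0 called, genes lower in KO at an unadjusted p under 0.05 in limma numbered 10 of 23 tested among other mitosis genes, 3 of 35 in ubiquitous machinery and 11 of 25 in DNA replication, where 10.1% of all genes tested were.

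Macrophage and endothelial markers were lower on the KO arrays by their list means. All 17 macrophage markers were lower in KO by means, with a median of -0.87 and list means of 8.58, 8.95 and 9.77 on the KO arrays against 10.04 to 10.18 on the WT arrays. None was called, at an unadjusted p under 0.05 in limma 13 were lower, and none lay below 4 on all arrays. KO 3 was the highest KO array for 17 of 17. Endothelial markers had a median of -0.33 over 16 genes, with Lyve1 and Thbd called lower in limma, and list means of 8.09 to 8.46 in KO and 8.66 to 8.77 in WT. Stellate markers had a median of -0.39 over 12, and their list means overlapped, at 8.65 to 9.09 in KO and 9.01 to 9.88 in WT. Of 13 lymphocyte markers 9 lay below 4 on all arrays, as did 5 of 6 cholangiocyte and 5 of 8 neutrophil markers, and these 3 lists had medians of -0.01, 0.00 and 0.00. Hepatocyte markers had a median of -0.01 over 14. Which cells the mitotic transcripts came from, and the part of these shifts and of the control signals above in the members' difference, was not tested.

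**Figure D5:**
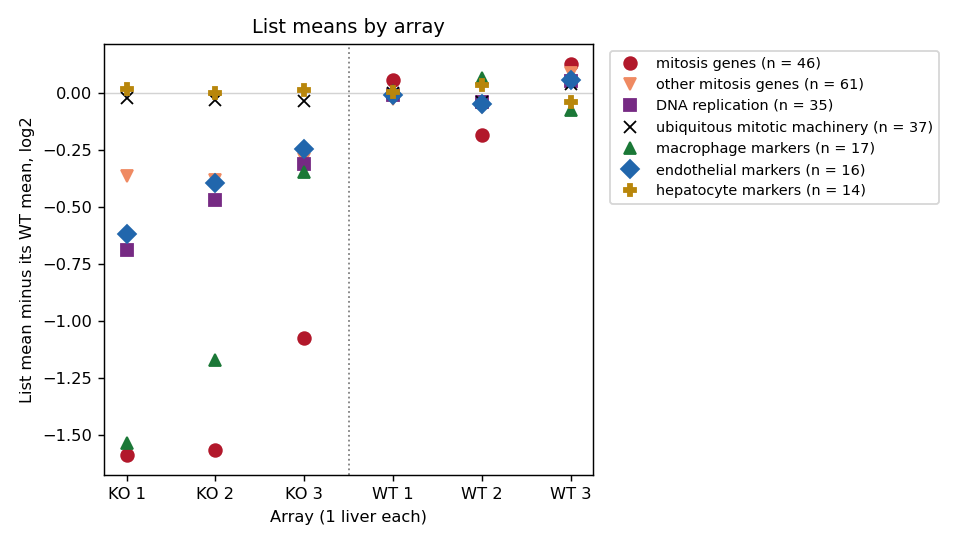
Mean log2 level of each gene list on each array minus the mean of its WT arrays (vertical axis) for 3 KO and 3 WT arrays (horizontal axis). Mitosis genes and macrophage markers lie lowest on KO 1 and KO 2 and closer to 0 on KO 3, while hepatocyte markers and ubiquitous mitotic machinery stay near 0 on all arrays.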

How the data were processed

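Liver RNA of 3 p14 KO and 3 WT mice was measured on Affymetrix mouse arrays, 1 array per mouse. Per the submitters' processing notes, the authors used GCRMA 2.16.0 in R 2.9.1 to make the deposited log2 values. The log2 scale was inferred from their range, 2.18 to 16.33, and 28.9% of values sat at the bottom of it. Differences between levels that both lie under about 4 therefore carry little information, and subtracting background can enlarge a difference where 1 group alone is dim. The 64 manufacturer control probe sets named no gene. Depth does not apply to arrays, and their number limits the precision.

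Groups came from the sample titles. Genes at 4 or above on at least 3 of 6 arrays, 10009 of 18193, were tested by two-sided moderated statistics from lmFit and eBayes, without covariates (limma 3.58.1, R 4.3.3), with Benjamini-Hochberg adjustment over all of them and a threshold of 0.05. Where no KO array reached 4, the fold is the WT mean over that level. An exact permutation test of 3 against 3 arrays cannot go below 0.1 and was not used. The members and lists were chosen with earlier results of these data known.

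Values on every array are given for each called member and, in each role, for up to 3 further members with the smallest unadjusted p that reached 4 on at least 1 array. Further members are given by their group means or differences, and the further probe sets were chosen after their values were seen. Promoter windows and motif matches came from RefSeq sequences of GRCm38.p6, searched in Python 3.11.15, and windows were not used for 9 members. Alternatives covered the filter, the floor, normalisation, probe sets, array weights, the variance model, arrays left out and a replicate block, and those added after seeing the data are named as such below. Figures were drawn with matplotlib 3.10.9.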

Additional observations from a re-analysis of the deposited data

How the results depend on the processing

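With 3 arrays a group and many members near background, the counts of calls moved with the setting. For the median over members, the named members and Lamtor2, 0 results reversed. In each named member and Lamtor2 every KO array lay below every WT array. Leaving out arrays or changing the variance model could therefore not reverse them, and members with overlapping groups were not followed this way. Genes called numbered 17 and members called 6. With no filter these were 3 and 2, with a mean of at least 4 they were 8 and 2, with values floored at 4 they were 25 and 10, and with an ordinary two-sample test 3 and 2. Members called numbered 5 with quantile normalisation, median centring or an intensity trend, 6 with array weights and 4 with probe sets averaged per gene; genes called were 16 to 20 in these. With 1 array left out, genes called ran from 1 to 140 and members called from 1 to 21, in both cases with the highest count without KO 3. Without KO 3 and WT 2 together, 3 genes and 2 members (Mki67 and Top2a) were called. Chosen after seeing the data, testing every probe set gave 15 genes and 4 members. The labels name no pairing of mice. Over all genes tested, same-numbered mice did not deviate together (r of -0.09, -0.08 and -0.14), which cannot exclude a pairing that touches some genes only. With the replicate block 0 genes and 0 members were called. Its SE was smaller for some members, as for Ccna2 (0.10 against 0.33), and larger for others, as for Aurka (0.087 against 0.073).

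The median over members, -1.31, was -0.80 with values floored at 4, -0.61 with probe sets averaged per gene, -1.56 without KO 3 and WT 2, and between -1.52 and -1.22 with 1 array left out. The count of 35 members without overlap was 27 with values floored at 4 and 22 of 24 with a mean of at least 4, and 37 or 38 without KO 3 or WT 2, settings chosen after seeing the data. For the named members and Lamtor2, 53 alternatives ended a call, 20 made one and 340 did neither. The 340 include genes called in neither setting, so they do not measure how stable the calls were. Of the genes called, Aurka kept its call in 13 of 15 alternatives and Lamtor2 in 11 of 17. Cdkn3 kept it in 9 of 17, Kif20a and Top2a each in 8 of 16, Nuf2 in 6 of 16 and Spc24 in 6 of 17. The causes were not tested.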

Other observations

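Genes outside the members that carry the same promoter features had a median close to that of all genes. Over the 122 other genes past the filter with a CHR near the start and a CCAAT box in the window, the median difference was -0.07 against -0.04 for all 10009 genes past the filter, and the groups did not overlap, KO lower, for 22 of the 122 and for 1400 of the 10009. Of the 122, 2 were at least 2-fold lower in KO by means.

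Regulators of the step before replication were a list of 32 G1 cyclins, RB family members, E2F factors and CDK inhibitors. Their median was -0.12, with 0 called in limma. At an unadjusted p under 0.05 in limma, 8 of 27 tested were lower and 1 higher, where 10.1% of all genes tested were lower. The groups did not overlap, KO lower, for 7 of the 32 (21.9%, against 8.08% of all genes), and KO higher for 1. Cdkn1a, the CDK inhibitor p21, averaged 4.33 ± 0.54 in the 3 KO livers and 5.40 ± 0.15 in the 3 WT livers (SD, limma adjusted p = 0.243). Rbl1, the pocket protein p107, measured 4.18, 4.85 and 4.92 in KO and 5.32, 5.37 and 5.52 in WT (limma adjusted p = 0.255). Both had every KO array below every WT array, and neither was called.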
